A study of Mus musculus with 12 samples.

Results

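The spinal cord libraries of mice 1 to 6 were compared with those of mice 7 to 12, with genotype as a covariate. The division takes in all 12 libraries of the series, 6 in each set, and follows the mouse numbers in the sample titles. It was chosen by the measured expression values of these same libraries. The first principal component of log2 CPM held 41.6% of all variance. These CPM were expected counts scaled to the library total times its TMM factor, with a prior count of 2. On this component mice 1 to 6 lay between -44.5 and -26.4 and mice 7 to 12 between 30.1 and 37.2. Genes such as Hba-a1, Acta1, Mpo and Dbp had been seen to differ between the sets. Every value of the set difference below therefore describes the division and is no test of it, and no p-value is printed for it.

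All mice were 8 weeks old, on a mixed B6J;FVB background, and either wild type (WT, labelled ETAQ+/+) or heterozygous for a deletion in Gars named ETAQ for the 4 amino acids it removes (ETAQ, labelled ETAQ+/-). Gars encodes glycyl-tRNA synthetase, which charges tRNA with glycine, and its human dominant mutations lead to Charcot-Marie-Tooth neuropathy. Mice 1 to 6 were 3 WT males (mice 2, 3 and 4), 2 ETAQ males (mice 5 and 6) and 1 ETAQ female (mouse 1). Mice 7 to 12 were 3 WT females (mice 7, 10 and 12), 2 ETAQ females (mice 8 and 9) and 1 ETAQ male (mouse 11). Genotype was thus balanced over the sets, while sex nearly coincided with them, and in WT mice set and sex cannot be told apart. Set could be compared within a sex only in ETAQ mice, as mouse 1 against mice 8 and 9 (females) and as mice 5 and 6 against mouse 11 (males). The time of day, the way the cord was removed, its cranial and caudal limits and any batch are not stated in the labels.

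The spinal cord lies in the vertebral canal, wrapped in meninges and joined to the body by nerve roots whose axons are ensheathed by Schwann cells. Vertebrae hold red marrow, where red cells, granulocytes and B cells are made, and are covered by skeletal muscle. Along the cord, neurons keep a record of their level in the Hox genes, whose paralog numbers run from anterior (low) to caudal (high). Most cells also run a circadian clock, in which CLOCK or NPAS2 with BMAL1 (the Arntl product) switch on Per, Cry, Nr1d1, Nr1d2, Bhlhe40, Bhlhe41 and output genes such as Dbp, several of whose proteins feed back as repressors.

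Each library held between 23595929 and 41452662 expected counts. A gene with 0 counts could be present at up to 3 counts, or 0.0724 to 0.127 CPM by library. Levels below are CPM scaled by TMM factors of 0.975 to 1.02. The cord itself was well represented in every library. The summed level of 16 neuron genes was 10239 to 12858 in mice 1 to 6 and 10406 to 12644 in mice 7 to 12, and that of 14 mature oligodendrocyte genes 32614 to 41228 and 30049 to 36273. Mice 1 to 6 had more genes above 0 (20992 to 21858 against 20805 to 21184) and a higher share of mitochondrial counts (8.50% to 11.1% against 7.88% to 8.85%). In bulk tissue, fewer cells of a type and less RNA per cell cannot be told apart.

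**Figure D1:**
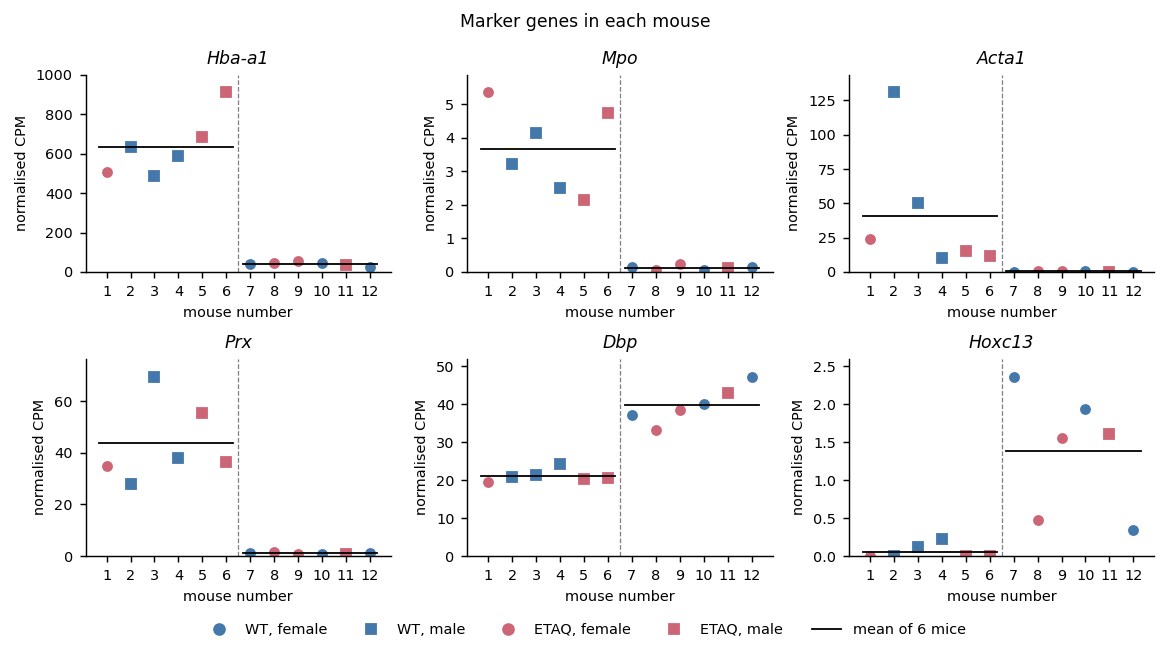
Normalised CPM (vertical axes, linear from 0) of 6 marker genes in each mouse (horizontal axes, mouse number). Colour gives genotype, shape gives sex, and bars are means of 6 mice. Hba-a1, Mpo, Acta1 and Prx sit near the axis in mice 7 to 12, Dbp is higher there, and Hoxc13 is at or near 0 in mice 1 to 6.

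Of 17189 genes tested, edgeR's quasi-likelihood test called 3533 (20.6%) at an adjusted p under 0.05, of which 1873 (10.9%) were higher and 1660 (9.66%) lower in mice 1 to 6. These shares are the background against which each list below is to be read. With sex added as a covariate 848 (4.93%) were higher and 508 (2.96%) lower. In 859 genes (5.0%) all 6 values of mice 1 to 6 lay above all 6 of mice 7 to 12, and in 663 (3.86%) all lay below.

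The higher and lower genes were of different kinds. The higher calls had a median log2 fold change of 0.38, and 446 of them (23.8%) differed at least 2-fold. The lower calls had a median of -0.16, and 7 of 1660 (0.422%) differed at least 2-fold. Lower genes were abundant and long: their median level was 56.5 CPM and their median transcript length 3783 bases, against 16.8 CPM and 2494 bases over all tested genes and 8.89 CPM and 2175 bases for the higher calls. X-linked genes, whose level can move with sex, made up 104 (6.27%) of the lower calls and 598 (3.48%) of all tested genes. In both sex-matched ETAQ comparisons 1671 of the higher calls (89.2%) lay above and 1469 of the lower calls (88.5%) lay below, where 3755 (21.8%) and 3336 (19.4%) of all tested genes did. The ETAQ mice of these comparisons are also part of the fit that made the calls.

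The 7 lower genes past 2-fold were Hoxc12, Hoxc13, Hoxb13, the Hox antisense RNA Hotair, Fhl4, Gm13889 and the pseudogene Pgam1-ps2. They were named after their values were seen. Of these, 4 belong to the caudal end of the Hox clusters, which is described below.

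Red blood cell genes separated the sets without overlap. Hba-a1 (ENSMUSG00000069919, chromosome 11, 32283511 to 32284465 in GRCm38), an alpha globin gene, was at 509, 634, 488, 590, 683 and 911 CPM in mice 1 to 6. In mice 7 to 12 it was at 39.8, 47.5, 55.1, 44.6, 36.6 and 24.7 CPM, a log2 fold change of 3.94 ± 0.21 (SE). Mouse 6 was highest and mouse 12 lowest. Transcripts of other genes contain 67.9% of the 75-base stretches of Hba-a1, so its reads could be divided with its near copy. Alas2, the enzyme that starts haem synthesis in red cells, does not have that difficulty and was at 27.8 to 51.9 against 2.18 to 4.11 CPM. Of 13 tested genes of the red cell list 11 were higher and 1 lower, with 11 and 0 when sex was a covariate. The lower one was Sptb, a spectrin gene of the membrane skeleton, at a log2 fold change of -0.13 ± 0.04, and it was not called with sex as a covariate. No gene of the list was called lower without mouse 2, 4, 5, 6, 7, 9 or 10. Epb4.2, which links the anion channel to the skeleton, was at 1.41 to 2.75 against 0.0348 to 0.0970 CPM.

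Genes of red cell precursors were near the floor in mice 7 to 12. The Rh-associated glycoprotein gene Rhag had 289 counts over mice 1 to 6 and 3 over mice 7 to 12, and the blood group gene Kel 288 and 6. Of 12 tested erythroid precursor genes 10 were higher, 10 with sex as a covariate, with a median log2 fold change of 4.49 where all tested genes had a median of 0.00608.

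Granulocyte genes had the largest median fold change of the 51 lists. Mpo (ENSMUSG00000009350, chromosome 11, 87793581 to 87804413), the myeloperoxidase of neutrophil precursors, was at 5.36, 3.22, 4.14, 2.51, 2.14 and 4.75 CPM in mice 1 to 6. In mice 7 to 12 its values were 0.143, 0.0724, 0.226, 0.0614, 0.104 and 0.136 CPM, from 2 to 7 counts a library. Mmp8, the neutrophil collagenase, had 575 counts over mice 1 to 6 and 5 over mice 7 to 12. Retnlg, a granule protein gene of mature neutrophils, had 763 and 4, and Cd177, a neutrophil surface protein gene, 612 and 6. Elane, neutrophil elastase, had 181 and 2. Of 18 listed granule genes 16 passed the filter on low counts, and all 16 were higher in both fits, with a median log2 fold change of 6.22. They passed that filter through mice 1 to 6, so neither the count nor the rank of the median among the lists is support for a difference. The same holds for genes of red cell precursors, B cells, platelets and muscle that were near 0 in mice 7 to 12.

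B cell and platelet genes were higher at low levels. Cd79a, a chain of the B cell receptor, was at 1.24 to 2.84 against 0.0716 to 0.184 CPM. Spib, a B cell transcription factor gene, was at 1.82 to 2.96 against 0.0358 to 0.109. Of 9 tested B cell precursor genes 8 were higher in both fits. The platelet chemokine genes Ppbp and Pf4 were at 2.09 to 5.86 against 0.0678 to 0.194 CPM and at 0.852 to 2.07 against 0.0362 to 0.194. Of 9 tested platelet genes 7 were higher, 4 with sex as a covariate and 4 without mouse 8. Only 2 of 12 T and NK cell genes were tested, Trac and Lck, and 0 were called. Their values overlapped: Lck, the T cell receptor kinase, was at 0.462 to 1.05 against 0.485 to 0.766 CPM.

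Genes of dividing cells were higher as well. Mki67, a protein of cycling nuclei, was at 25.8, 13.9, 15.8, 10.6, 17.0 and 20.8 CPM in mice 1 to 6, against 2.30 to 2.86 in the other set. Top2a, the topoisomerase of dividing cells, was at 5.5 to 9.68 against 1.58 to 2.79. Of 18 tested cell division genes 16 were higher, and 16 with sex as a covariate, with a median log2 fold change of 1.12. The calls were not all the same genes: Nusap1 was called only without that covariate and Tyms only with it. Mouse 1 held the highest value of Mki67, Top2a, Mpo and Ppbp, and mouse 4 the lowest of Mki67 and Top2a.

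Skeletal muscle genes were higher in all 6 of mice 1 to 6 but to very different degrees. Acta1 (ENSMUSG00000031972, chromosome 8, 123891769 to 123894751), the actin of the skeletal muscle thin filament, was at 24.3, 131, 50.03, 10.2, 15.4 and 11.9 CPM in mice 1 to 6. It was at 0.322, 0.579, 0.776, 0.461, 0.279 and 0.305 CPM in mice 7 to 12, and the log2 fold change was 6.34 ± 0.86. Mouse 2 stood far above the others, and the lowest of mice 1 to 6 was still above the highest of mice 7 to 12. All 25 tested fast muscle genes were higher, and 16 with sex as a covariate. The fast myosin heavy chain gene Myh1 peaked in mouse 3 (28.0 CPM) rather than in mouse 2 (18.9), and was at 0.0678 to 0.279 in mice 7 to 12. Pygm, the muscle glycogen phosphorylase, which is also made in the cord, was at 136 to 184 against 113 to 131.

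The summed level of slow muscle genes was highest in mouse 3. Myl2, the slow ventricular and slow muscle light chain, was at 3.27 CPM in mouse 3, at 0.255 to 0.917 in the other 5 and at 0.0323 to 0.143 in mice 7 to 12. Of 7 tested slow muscle genes 4 were higher, 3 with sex as a covariate. Myh2, the myosin of intermediate fast fibres, was also highest in mouse 3 (15.8 CPM) and at 3.04 to 7.29 in the other 5.

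**Figure D2:**
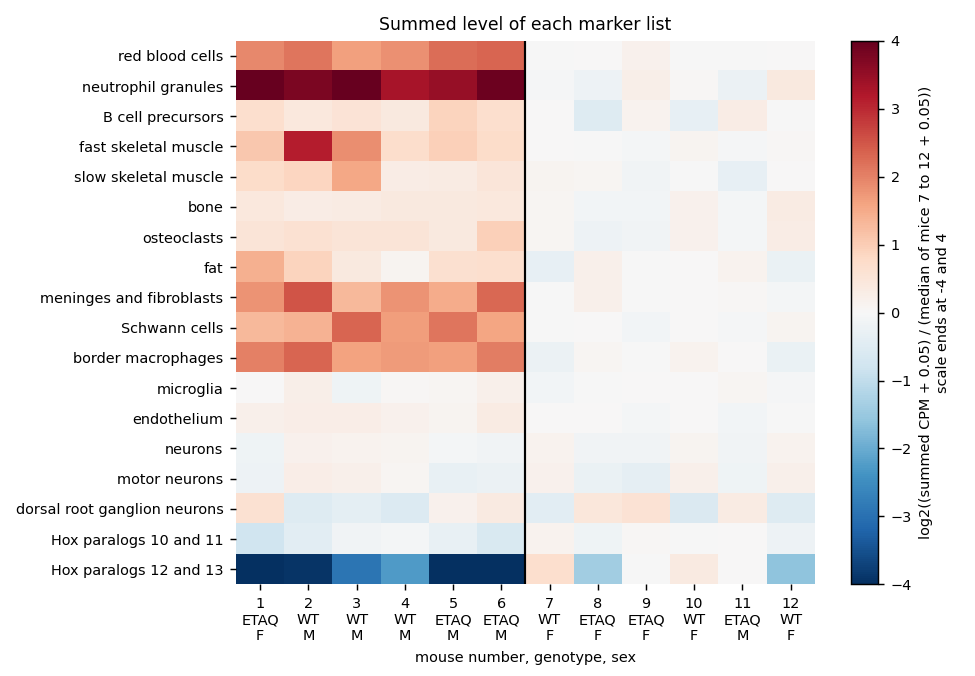
Summed CPM of the tested genes of each marker list (rows) in each mouse (columns), as log2 of the sum plus 0.05 over the median of mice 7 to 12 plus 0.05; red is above and blue below that median, and colours end at -4 and 4. Blood, marrow, meninges, Schwann cell and muscle lists are red in mice 1 to 6, with fast muscle strongest in mouse 2 and slow muscle in mouse 3, while Hox paralogs 12 and 13 are blue.

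Bone, cartilage and fat genes were few and uneven. Ibsp, bone sialoprotein, was at 0.633 to 2.59 against 0 to 0.226 CPM, and Acp5, the acid phosphatase of osteoclasts, at 0.760 to 4.22 against 0.0362 to 0.123. Mouse 6 was highest in both. Bglap2, an osteocalcin gene, had 143 counts over mice 1 to 6 and 2 over mice 7 to 12, and 73.3% of its 75-base stretches recur in other genes. Only 4 of 10 tested bone genes, 2 of 6 osteoclast genes and 2 of 7 cartilage and disc genes were higher. The cartilage count was 1 with sex as a covariate and without mouse 1, 2, 7, 9, 10, 11 or 12. Fabp4, the fatty acid carrier of fat cells, was at 13.3 CPM in mouse 1, between 0.681 and 4.84 in mice 2 to 6, and between 0 and 0.0614 in the other set. Of 10 listed fat genes 4 were tested and called higher, and 7 were called without mouse 5 and 8 without mouse 6. Adipoq, Cidec and Fabp4 passed the filter on low counts through mice 1 to 6, so these counts are not support for a difference. The other, Lpl, a lipase gene that other cells also express, was higher by 0.42 ± 0.08 on the log2 scale. The median log2 fold change of the 4 was 5.40, or 4.36 with the gene at 0 in all of mice 7 to 12 set to its bound of 3 counts over the group.

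Schwann cell and meningeal genes were higher in mice 1 to 6. Prx (ENSMUSG00000053198, chromosome 7, 27499324 to 27520214), periaxin, a protein of the myelin made by Schwann cells, was at 34.7, 27.8, 69.5, 37.9, 55.2 and 36.6 CPM in mice 1 to 6. In mice 7 to 12 it was at 1.07, 1.74, 0.841, 0.921, 0.975 and 1.25 CPM. The log2 fold change was 5.27 ± 0.32, and mouse 3 was highest. Dhh, the Schwann cell signal that patterns the nerve sheath, was at 1.37 to 2.96 against 0.0696 to 0.509. Of 13 tested Schwann cell genes 12 were higher, 11 with sex as a covariate. The median log2 fold change was 1.32, and their summed level was 454 to 914 against 169.9 to 196 CPM.

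Ogn, a small proteoglycan of connective tissue, was at 17.1 to 30.7 against 0.678 to 1.85 CPM, and Dcn, decorin, at 29.5 to 60.7 against 9.50 to 13.7. Of 16 tested meningeal and fibroblast genes 14 were higher, 12 with sex as a covariate, with a median of 1.96. Mfap5 and Anxa1 were among the 12 higher genes with the smallest p. Mfap5, a microfibril protein gene, was at 4.08 to 6.84 against 0.323 to 0.430, and Anxa1, an annexin gene of neutrophils and epithelia, at 6.34 to 8.40 against 0.305 to 0.688.

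Sensory neuron genes were mostly not called. Of 15 listed dorsal root ganglion genes 8 were tested, with a median log2 fold change of 0.11, and 1 was called higher, Tmem233, with 77 counts over mice 1 to 6 (0 to 33 a mouse) and 2 over mice 7 to 12. P2rx3, an ATP receptor channel of nociceptors, was at 0.912 to 11.5 against 1.36 to 12.3 CPM and ordered the mice by genotype in both sets. Avil, a sensory neuron actin regulator gene, was at 0.456 to 4.02 against 0.154 to 2.91. P2rx3 and Avil were picked with their values in view. The summed level of the 8 genes was 12.8 to 28.9 against 12.6 to 28.3 CPM. The difference between this list and the Schwann cell list was not tested.

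Genes listed for macrophages at the borders of the cord were higher, while microglia genes did not pass. Cd74, the chaperone of class II antigen presentation, was at 5.93 to 11.6 against 1.25 to 1.83 CPM, and H2-Aa, a class II chain, at 2.89 to 4.59 against 0.348 to 0.724. Of 12 tested border macrophage genes 11 were higher in both fits. Pf4, named above as a platelet gene, is also on this list. B cell and platelet genes were higher in the same mice, and which cells made these transcripts was not tested. Of 14 tested microglia genes 0 were called, with a median log2 fold change of 0.09. Tmem119, a microglial membrane protein gene, was at 12.7 to 15.6 against 10.7 to 14.6, and C1qa, a complement chain gene, at 21.4 to 34.0 against 20.9 to 24.0. The difference between these lists was not tested.

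Vessel genes were higher by little. Of 17 tested endothelial genes 10 were higher, 5 with sex as a covariate and 6 to 12 when a mouse was left out (6 without mouse 2, 6 or 7), with a median log2 fold change of 0.23. Vwf, the clotting protein of larger vessels and platelets, stood out at 27.6 to 44.6 against 12.7 to 16.1 CPM. Of 11 tested pericyte and smooth muscle genes 5 were higher, 3 with sex as a covariate. Tagln, a smooth muscle actin-binding protein gene, was at 9.39 to 12.9 against 5.24 to 6.30, with 67.9% of its exon bases opposite exons of another gene. Genes of the hindbrain and cerebellum were not called in either direction (0 of 6 tested of 12 listed).

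Rsad2, an interferon-induced antiviral gene that is not on the interferon list, was also among the 12 higher genes with the smallest p, at 4.48 to 7.98 against 0.859 to 1.85 CPM. That list had 1 of 12 genes higher, 0 with sex as a covariate or without mouse 2, 6, 7, 10 or 12, and 2 without mouse 1 or 5.

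Hox genes of paralogs 12 and 13 had larger fold changes than the other genes called lower in mice 1 to 6, except the pseudogene Pgam1-ps2 (-5.05 on the log2 scale). The Hox genes divide the cord by level: paralogs 5 to 9 mark brachial and thoracic cord, 10 and 11 lumbar cord, and 12 and 13 the sacral and tail end. Hoxc13 (ENSMUSG00000001655, chromosome 15, 102921103 to 102928814), the most caudal gene of its cluster, had 0, 0, 3, 9, 0 and 0 counts in mice 1 to 6. It had 66, 13, 48, 63, 46 and 10 counts in mice 7 to 12, or 0.339 to 2.36 CPM against 0 to 0.219. Its neighbour Hoxc12 (chromosome 15, 102936757 to 102938609) had 0, 5, 10, 23, 3 and 0 counts against 81, 29, 61, 77, 59 and 28. The sets did not overlap in either gene. Mouse 4 was highest among mice 1 to 6 and mice 8 and 12 were lowest among mice 7 to 12 in both.

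Hoxb13 had 3 counts over mice 1 to 6 and 91 over mice 7 to 12, where mice 8 and 12 had 0, so its values overlapped. Hoxa13 had 1 and 46 counts and Hoxd13 18 and 39, both under the filter on low counts, and Hoxd12 had 2 and 6. The 3 of 6 genes of paralogs 12 and 13 that were tested were called lower, 2 with sex as a covariate. They passed the filter through mice 7 to 12, so the count is not support for a difference. Their log2 fold changes were -3.22 ± 0.56 for Hoxc12 and -4.42 ± 0.78 for Hoxc13. Hotair, an antisense RNA of the Hoxc cluster, was at 0.0592 to 1.48 against 1.74 to 3.47 CPM and lower in both fits.

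Among the tested genes the difference was graded by paralog number. The median log2 fold change was -0.10 for paralog 9, -0.34 for paralog 10, -0.84 for paralog 11, -3.22 for paralog 12 and -4.57 for paralog 13. These medians cover 4, 3, 3, 1 and 2 tested genes, in that order. The tested genes of paralogs 12 and 13 passed the filter through mice 7 to 12. Hoxd13, which was not tested, had 18 counts over mice 1 to 6 and 39 over mice 7 to 12. Medians for paralogs 1 to 8 lay between -0.07 and 0.15. All 6 tested genes of paralogs 10 and 11 were below 0 and 4 were called lower in both fits, and leaving out a mouse gave 0 (mouse 2) to 5 (mouse 4 or 12) calls, with 1 without mouse 6 and 2 without mouse 1, 5, 7, 8, 9 or 11. Hoxd11 was at 3.26, 5.54, 8.02, 7.30, 4.03 and 2.88 CPM in mice 1 to 6 and at 10.6, 7.75, 9.67, 10.3, 9.30 and 5.94 in mice 7 to 12. Its values overlapped, because mice 3 and 4 were above mice 8 or 12. Hoxd10 was at 10.4 to 20.5 against 17.4 to 23.1, with mouse 4 highest again in mice 1 to 6 and mouse 12 lowest in mice 7 to 12. Its call was lost without mouse 2. The calls of Hoxd11 (without mouse 1, 2, 5 or 6), Hoxa10 (without any of 6 mice) and Hoxc11 (without any of 10 mice) were lost as well, with no change of direction.

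**Figure D3:**
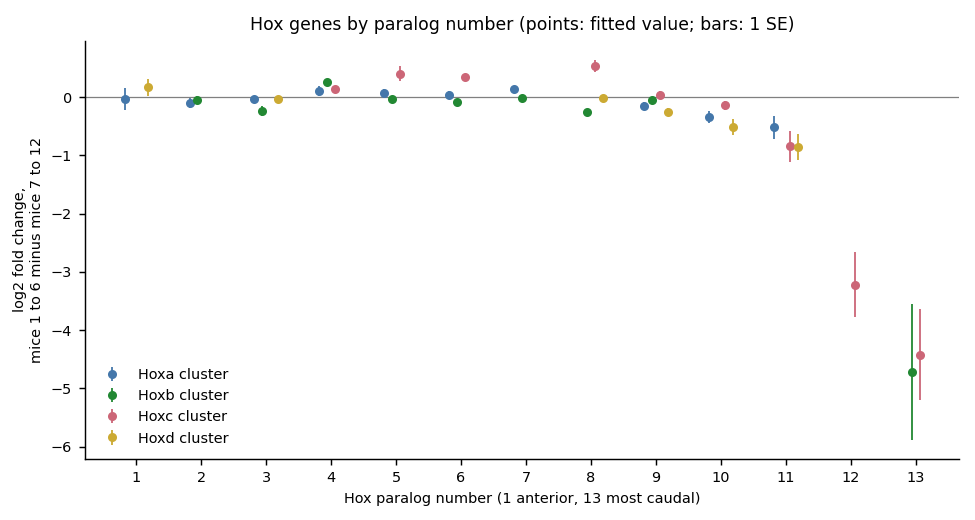
Log2 fold change of mice 1 to 6 minus mice 7 to 12 (vertical axis) for the 34 tested Hox genes by paralog number (horizontal axis), coloured by cluster, with bars of 1 SE. Values stay near 0 up to paralog 9, are lower at 10 and 11 and reach -3.22 to -4.72 at 12 and 13, while Hoxc5, Hoxc6 and Hoxc8 lie above 0.

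Within the Hoxc cluster the direction turned along the chromosome. Hoxc8 (chromosome 15, 102990607 to 102994111) was at 70.8, 57.8, 46.7, 54.4, 60.1 and 53.4 CPM in mice 1 to 6 and at 33.8, 41.9, 35.05, 40.1, 38.7 and 45.8 in mice 7 to 12, a log2 fold change of 0.54 ± 0.10. The sets did not overlap, and mouse 1, with 0 counts of Hoxc12 and Hoxc13, had the highest Hoxc8. Hoxc6 was at 19.6 to 22.3 against 15.6 to 16.9 CPM. Hoxc5 was higher by 0.40 ± 0.13 with overlap, and its call was lost without any of 7 mice. Hoxc9 was at 9.77 to 13.1 against 10.2 to 11.4 and Hoxc10 at 28.7 to 42.2 against 35.9 to 43.8, and neither was called. Hoxb4 and Hoxa7 were also higher without overlap, at 12.97 to 14.9 against 10.5 to 12.7 CPM and at 56.3 to 62.3 against 52.1 to 55.3.

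Other thoracic genes went the opposite way or did not pass. Hoxb8 was at 118 to 136 against 138 to 159 CPM, lower without overlap, and was not called with sex as a covariate. Hoxd9 was lower by 0.25 on the log2 scale (13.3 to 17.9 against 17.2 to 22.1 CPM). Of 15 tested genes of paralogs 5 to 9, 4 were higher and 2 lower, and of 10 tested genes of paralogs 1 to 4, 2 were higher (Hoxb4 and Hoxc4). The latter count was 1 with sex as a covariate and without any 1 of mice 3 to 11, and 1 gene was called lower without mouse 1, 3, 5, 11 or 12.

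Of the clock genes, Dbp and 4 of 9 tested genes of the repressor list were lower in mice 1 to 6. Dbp had the largest fold change of the 20 lower genes with the smallest p. Dbp (ENSMUSG00000059824, chromosome 7, 45705088 to 45710203) encodes a bZIP transcription factor whose mRNA cycles in most tissues. Nr1d1 (ENSMUSG00000020889, chromosome 11, 98767932 to 98775333) encodes the receptor REV-ERB alpha, a repressor of Arntl and Npas2. Bhlhe41 encodes the repressor DEC2. NPAS2 partners BMAL1 as an activator. The 250 bases before the start site of each, from RefSeq on GRCm38.p6, are shown because these genes differed in opposite directions: Dbp, Nr1d1 and Bhlhe41 lower and Npas2 higher. Capitals mark the E-box CACGTG, the site of the CLOCK and BMAL1 pair, which reads the same on both strands.
Dbp (chr7:45704997-45705246, plus strand): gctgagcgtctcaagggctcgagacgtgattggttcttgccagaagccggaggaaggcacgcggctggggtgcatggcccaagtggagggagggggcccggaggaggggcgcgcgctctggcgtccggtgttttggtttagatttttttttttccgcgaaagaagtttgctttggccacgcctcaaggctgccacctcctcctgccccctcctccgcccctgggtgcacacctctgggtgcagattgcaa
Nr1d1 (chr11:98775378-98775627, minus strand): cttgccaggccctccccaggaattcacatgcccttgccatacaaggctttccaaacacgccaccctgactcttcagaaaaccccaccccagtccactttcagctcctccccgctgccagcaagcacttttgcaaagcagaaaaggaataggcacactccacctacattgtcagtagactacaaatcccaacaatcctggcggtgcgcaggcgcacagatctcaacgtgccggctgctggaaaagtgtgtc
Bhlhe41 (chr6:145865421-145865670, minus strand): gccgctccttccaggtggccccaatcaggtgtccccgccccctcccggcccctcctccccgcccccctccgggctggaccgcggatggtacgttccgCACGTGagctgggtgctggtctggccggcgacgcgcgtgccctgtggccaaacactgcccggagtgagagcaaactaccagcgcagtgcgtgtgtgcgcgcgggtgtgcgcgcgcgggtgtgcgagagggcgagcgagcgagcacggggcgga
Npas2 (chr1:39194022-39194271, plus strand): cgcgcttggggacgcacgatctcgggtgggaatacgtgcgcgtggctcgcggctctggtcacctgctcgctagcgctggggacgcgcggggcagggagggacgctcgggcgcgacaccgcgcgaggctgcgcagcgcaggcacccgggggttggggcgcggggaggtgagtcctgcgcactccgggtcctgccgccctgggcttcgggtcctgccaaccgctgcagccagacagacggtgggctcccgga

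Among these windows only that of Bhlhe41 held the E-box, 153 bases before its start. RefSeq windows were found for 22 of 27 tested clock genes, with 29 start sites. Of these 22 genes 7 had the E-box in at least 1 window. Of all 32851 windows of the same length, each counted singly, 6.02% had it. A count by gene and a share by window are unlike measures. The D-box TTATGTAA, read on both strands, was in windows of 2 clock genes and in 0.819% of all windows. TAGGTCA, the core of REV-ERB and ROR receptor sites, read on both strands, was in 1 and in 2.23%. None of the 3 motifs is contained in another. By the gene position given above, Dbp starts inside its RefSeq window, so part of that window lies within the gene by that annotation. A match in letters is a description, and its absence concerns only these windows.

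Dbp was at 19.4, 20.9, 21.3, 24.2, 20.4 and 20.5 CPM in mice 1 to 6 and at 37.0, 33.2, 38.4, 40.0, 42.9 and 47.2 in mice 7 to 12. It was 1.88-fold lower (log2 fold change -0.91 ± 0.07), with mouse 4 highest of the low set and mouse 12 highest of all. Exons of another gene lie opposite 18.0% of its exon bases, and the labels do not state the strand setting of the counting. In ETAQ females Dbp was at 19.4 (mouse 1) against 33.2 and 38.4 (mice 8 and 9). In ETAQ males it was at 20.4 and 20.5 (mice 5 and 6) against 42.9 (mouse 11).

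Nr1d1 was at 41.9, 45.1, 40.3, 52.8, 43.9 and 45.2 CPM in mice 1 to 6 and at 72.9, 62.7, 68.3, 71.5, 66.9 and 70.4 in mice 7 to 12, a log2 fold change of -0.61 ± 0.05 without overlap. Its paralog Nr1d2 was at 127 to 143 against 153 to 178. Bhlhe40, the repressor DEC1, was at 44.8 to 50.4 against 51.8 to 63.7. Bhlhe41 was at 63.5 to 73.4 against 68.6 to 82.1, with overlap. These 4 of 9 tested genes of the clock repressor list, which did not hold Cry1, were lower in both fits. The median over the 9 was -0.16.

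The 3 Per genes were not called over all 12 mice. Per1 lay between 23.9 and 39.4 CPM in mice 1 to 6, between 24.1 and 39.0 in mice 7 to 11, and at 50.8 in mouse 12. Per2, a repressor that peaks later than Nr1d1 in many tissues, was at 18.0 to 23.3 and at 16.1 to 18.6, with 26.9 in mouse 12. Without mouse 12 Per2 was called higher, by 0.26 ± 0.07 on the log2 scale, where all 12 mice gave 0.13 ± 0.12. Per3 was at 41.1 to 48.3 against 42.4 to 51.3.

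Of the activating arm Npas2 was higher, at 11.6, 10.3, 11.97, 10.5, 13.1 and 11.9 CPM against 10.1, 10.8, 9.47, 8.78, 8.64 and 9.16, a log2 fold change of 0.28 ± 0.07 with overlap at mouse 8. Arntl was at 17.9 to 19.8 against 13.2 to 19.2 and was not called, at 0.19 ± 0.07. The list of 8 tested clock activators also held Cry1 and Nfil3, whose proteins repress. Of these 8 genes 1 was higher, a share near the background of 10.9%, and 2 without mouse 7 or 9. Cry1 was not called, at 0.15 ± 0.06. Of 10 tested outputs 1, Dbp, was lower, a share near the background of 9.66% (2 without mouse 6), and the median log2 fold change was -0.08. Tef and Hlf, the bZIP relatives of Dbp, were at 191 to 212 against 203 to 231 and at 62.3 to 68.9 against 67.5 to 72.9 CPM.

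**Figure D4:**
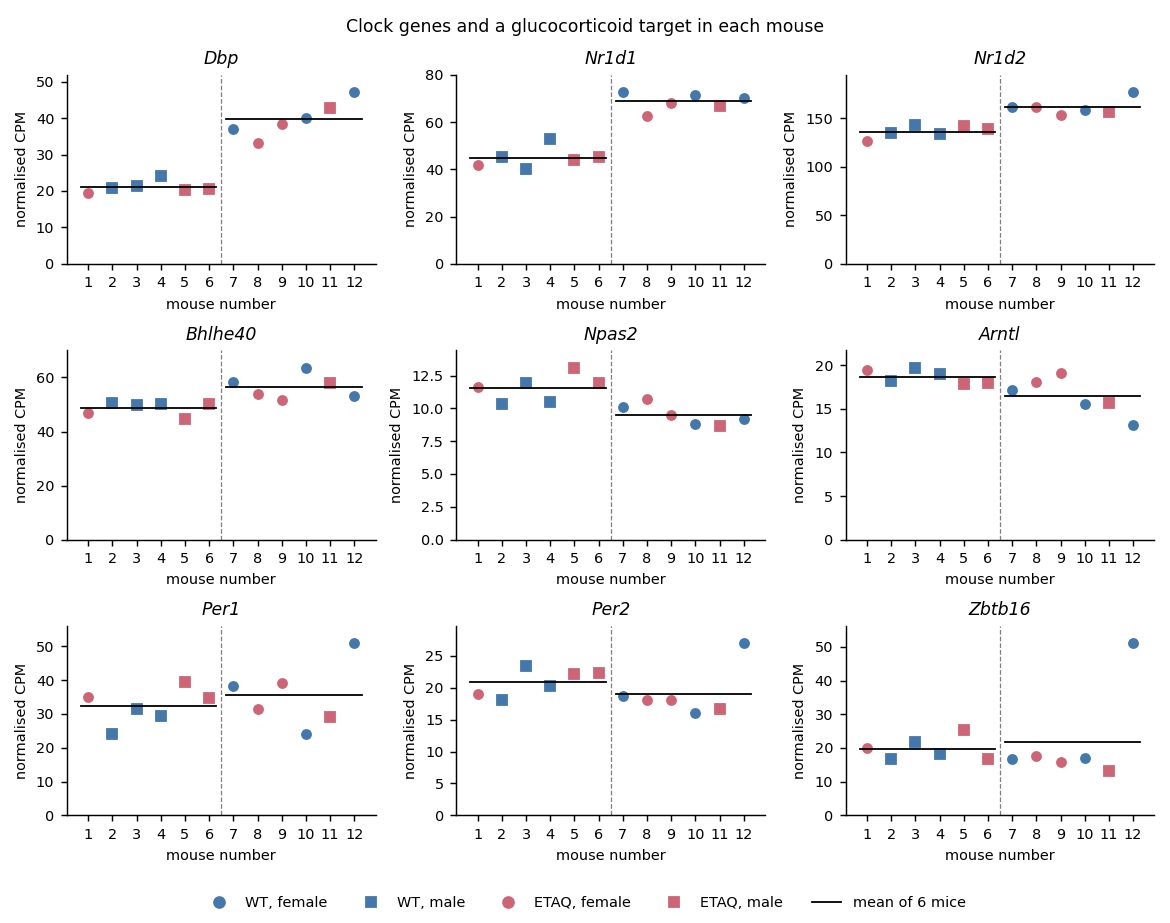
Normalised CPM (vertical axes, linear from 0) of 8 clock genes and the glucocorticoid target Zbtb16 in each mouse (horizontal axes, mouse number). Colour gives genotype, shape gives sex, and bars are means of 6 mice. Dbp, Nr1d1, Nr1d2 and Bhlhe40 step up from mice 1 to 6 to mice 7 to 12, Npas2 steps down, and mouse 12 stands apart in Per2 and Zbtb16.

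Mouse 12 also stood apart in genes that glucocorticoids, the stress and daily rhythm hormones of the adrenal gland, are known to induce. Zbtb16, a zinc finger gene, was at 51.0 CPM in mouse 12 and at 13.1 to 25.3 in the other 11. Sgk1, a kinase gene, was at 137 in mouse 12 and at 27.4 to 76.9 in the others. Pdk4, which inhibits pyruvate dehydrogenase, was at 43.6 in mouse 12, between 24.6 and 35.3 in mice 1 to 6 and between 14.8 and 22.3 in mice 7 to 11. Cdkn1a, the cell cycle inhibitor p21, was at 36.5 in mouse 12 and at 19.98 to 23.4 in mice 7 to 11, against 27.8 to 37.0 in mice 1 to 6. Without mouse 12 Pdk4 was called higher, by 0.57 ± 0.13. Sgk1, Zbtb16, Pdk4 and Per2 were not called over all 12 mice.

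Of 17 tested glucocorticoid targets 5 were higher and 1 lower, 2 and 0 with sex as a covariate, and 2 to 8 were higher when a mouse was left out (2 without mouse 3, 7, 8, 10 or 11, 3 without mouse 2, 5, 6 or 9, and 8 without mouse 12). Sult1a1, a sulfotransferase gene, was at 4.87 to 6.32 against 2.15 to 3.29 CPM and Mt1, a metallothionein gene, at 153 to 181 against 117 to 148, both without overlap. Klf9, a transcription factor gene that follows both hormone and clock, was lower at 67.3 to 85.0 against 80.6 to 101. Its call and that of Cdkn1a were lost with sex as a covariate and without any of 8 and 9 mice.

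Immediate early genes, which rise within minutes of stimulation, had 2 of 19 higher, a share near the background of 10.9%. Their count was 0 with sex as a covariate and 1 without mouse 6, 10 or 11. Among these genes Klf4 was at 6.15 to 8.22 against 3.84 to 6.85 CPM. Temperature-responsive genes had 2 of 13 higher and cholesterol synthesis genes 0 of 18 in either direction.

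The 20 lower genes with the smallest p were 1.17-fold to 1.88-fold lower and none overlapped between the sets. Among them, Necab1, a neuronal calcium-binding protein gene, was at 55.9, 52.6, 55.9, 53.1, 56.0 and 52.6 CPM in mice 1 to 6 and at 72.7, 74.5, 69.7, 69.3, 72.6 and 74.4 in mice 7 to 12. Its log2 fold change was -0.41 ± 0.03. Syt1, the calcium sensor of transmitter release, was at 182 to 201 against 231 to 236. The spread within each set was narrow, and the gap between the sets exceeded it in both genes.

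Others of these 20 genes follow, named by their p and not tested as a group. Baiap3, which acts in dense-core vesicle traffic, was at 69.3 to 76.7 against 86.8 to 106 CPM. C1ql3, a secreted synaptic organiser gene, was at 15.7 to 17.9 against 20.4 to 22.4, with 64.2% of its exon bases opposite another gene. Cdh8, a cadherin gene, was at 32.2 to 37.0 against 40.5 to 45.4. Kcnd3, a potassium channel gene, was at 46.9 to 51.7 against 57.8 to 61.1, and Pkia, an inhibitor of protein kinase A, at 109 to 117 against 134 to 148. Dgkb, a diacylglycerol kinase gene, was at 45.1 to 55.6 against 59.8 to 64.6. The direction was the same in both sex-matched comparisons of each.

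The EBF transcription factors, which specify neuron classes, were placed on a list after their values had been seen. Ebf2 was at 21.3, 20.6, 22.9, 20.8, 22.5 and 21.2 CPM in mice 1 to 6 and at 27.8, 32.3, 31.9, 28.1, 31.2 and 27.8 in mice 7 to 12, a log2 fold change of -0.47 ± 0.04. Ebf3 was at 68.7 to 79.7 against 86.3 to 100.1 and Ebf1 at 58.1 to 67.7 against 72.4 to 80.0. Ebf4 was at 9.92 to 12.4 against 10.1 to 12.9 and was not called. Thus 3 of the 4 were lower, also with sex as a covariate.

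Neurons of the dorsal horn and inhibitory neurons were the neuron classes with most lower genes. Gad2, an enzyme that makes GABA, was at 124, 116, 138, 125, 127 and 110 CPM in mice 1 to 6 and at 162, 157, 157, 158, 161 and 153 in mice 7 to 12, a log2 fold change of -0.36 ± 0.04. Gad1, the second such enzyme, was at 169.6 to 185 against 199 to 219. Gbx1 and Glra3, a transcription factor and a glycine receptor gene of these neurons, were at 4.93 to 5.77 against 5.94 to 8.08 and at 5.92 to 8.13 against 8.69 to 9.99. Of 12 tested inhibitory neuron genes 6 were lower and 1 higher, 4 and 0 with sex as a covariate, and 11 of the 12 were below 0. Slc6a5, the glycine transporter of inhibitory terminals, was not called, at 502 to 587 against 560 to 604.

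Pvalb, parvalbumin, was the 1 higher member. It is made by a class of inhibitory neurons, by large sensory neurons and by fast muscle. It was at 59.5, 111, 74.1, 59.4, 69.0 and 66.8 CPM in mice 1 to 6, against 46.9 to 56.9 in the other set, with the highest value in mouse 2, which was also highest for Acta1. Its call was lost with sex as a covariate and without any of 9 mice. The part of muscle RNA in this difference was not tested.

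Of 16 tested dorsal horn genes 4 were lower, 3 with sex as a covariate, and 11 were below 0. Slc17a6, the vesicular glutamate transporter of excitatory neurons, was at 202 to 231 against 243 to 254 CPM, without overlap. Sst and Tac1, neuropeptide genes, were at 44.8 to 54.5 against 51.2 to 63.5 and at 15.8 to 19.6 against 19.1 to 21.8. Penk, the enkephalin precursor gene, was at 82.8 to 112 against 81.0 to 97.6 and was not called. Inhibitory and excitatory genes were thus both among the lower calls.

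Motor neuron and general neuron genes were mixed. Of 13 tested motor neuron genes 2 were lower, 0 with sex as a covariate and 1 without mouse 4, 7 or 10, and 10 of the 13 were above 0. Nos1, nitric oxide synthase, which autonomic neurons of the cord also make, was at 76.1 to 85.8 against 86.5 to 97.5 CPM and was not called with sex as a covariate. Of 16 general neuron genes 3 were lower and 1 higher, with a median log2 fold change of -0.03.

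**Figure D5:**
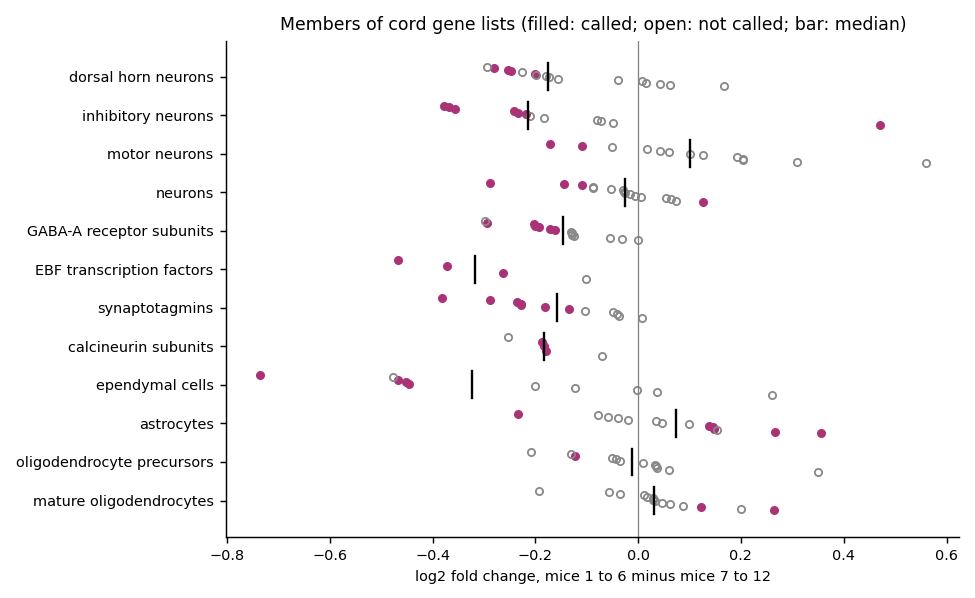
Log2 fold change of mice 1 to 6 minus mice 7 to 12 (horizontal axis) for each tested member of 12 lists of cord genes (rows). Filled points were called at an adjusted p under 0.05, open points were not, and bars are list medians. Dorsal horn, inhibitory neuron, GABA-A receptor, EBF, synaptotagmin, calcineurin and ependymal lists have medians from -0.15 to -0.32, while the astrocyte, mature oligodendrocyte and general neuron medians are 0.07, 0.03 and -0.03.

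Receptor, release and signalling families were listed after their values had been seen. Of 14 tested GABA-A receptor subunit genes 6 were called lower and none higher, 5 with sex as a covariate. Gabrq was at 10.8 to 12.8 against 13.1 to 15.2 CPM. Gabra2 varied widely within each set, at 109, 129, 83.0, 80.8, 122 and 81.4 against 136, 128, 125, 102, 124 and 49.99, and was not called. Of 12 tested synaptotagmins 7 were lower, 4 with sex as a covariate, among them Syt4 at 168 to 173 against 183 to 211. Of 5 tested calcineurin subunits 3 were lower in both fits, such as Ppp3ca at 424 to 472 against 499 to 533 and Ppp3r1 at 367 to 415 against 429 to 456.

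Ependymal cells, which line the central canal, had 4 of 10 genes lower, 1 with sex as a covariate and 1 to 4 when a mouse was left out (1 without mouse 2, 6, 9 or 11 and 2 without mouse 1, 5 or 12). Ak7, an adenylate kinase of cilia, was at 2.55 to 3.61 against 3.56 to 4.71 CPM. Foxj1, the regulator of motile cilia, was at 20.3 to 25.7 against 21.6 to 24.3 and was not called. Of 14 tested astrocyte genes 5 were higher and 1 lower. The lower one, the water channel gene Aqp4 (-0.23 ± 0.07 on the log2 scale), was not called with sex as a covariate, and 0 were lower without mouse 1, 2, 3, 4, 7, 8 or 10. Aldoc, a glycolytic enzyme gene, was at 1221 to 1251 against 1091 to 1152 CPM, and Gjb6, a connexin gene, at 71.2 to 87.4 against 56.1 to 78.7. Oligodendrocyte genes had 2 of 14 higher, and oligodendrocyte precursor genes 1 of 12 lower, with 0 in either list when sex was a covariate. The former count was 0 without mouse 2, 5, 6, 7 or 9 and 1 without mouse 4, 8, 10 or 11, and the latter was 2 without mouse 2 or 12.

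Ribosomal and mitochondrial transcripts were higher by little. Of 18 tested ribosomal protein genes 11 were higher, 5 with sex as a covariate, such as Rps24 at 177 to 189.6 against 152 to 169 CPM. Of 13 mitochondrially encoded mRNAs 6 were higher and 0 with sex as a covariate. The ribosomal RNA mt-Rnr2 was at 4057 to 5093 against 3542 to 4277, and was not called with sex as a covariate.

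Fragment span and library totals were tested as measures that did not choose the sets. The other library measures, genes above 0 and the mitochondrial share, were higher on average in mice 1 to 6, by 420 genes and 1.42 percentage points. They are computed from the expression counts that chose the sets, so no p-value is printed for them. The mean fragment span was 234 ± 6.01 bases (SD, n = 6) in mice 1 to 6 and 239 ± 5.13 (n = 6) in mice 7 to 12, with 222 in mouse 3 and 249 in mouse 12. The exact permutation test over mice gave p = 0.0931 (two-sided, adjusted p = 0.124 over 4 library measures). That adjustment took in genes above 0 and the mitochondrial share as well, so it is not over the tested measures alone. The same exact test, without adjustment, gave p = 0.0433 without mouse 2 and p = 0.0303 without mouse 11. Library totals were 31221000 ± 6233800 and 29443000 ± 1997600 counts (exact permutation p = 0.558, adjusted p = 0.558, n = 6 each).

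The genotype difference was next compared between the sets. For the interaction of set and genotype edgeR called 0 of 17189 genes (0.00%), with 750 at an unadjusted p under 0.05 and a smallest adjusted p of 0.472. By limma-voom 0 were called, and by DESeq2 8, among them the Y-linked Ddx3y and Eif2s3y. Within mice 1 to 6 edgeR called 184 genes (1.07%) for genotype, 65 higher and 119 lower in ETAQ mice. Within mice 7 to 12 it called 192 (1.12%), 52 higher and 140 lower. The calls shared 129 genes, which is 70.1% of the former and 67.2% of the latter, all with the same direction. Within each set the WT mice were all of the same sex and the ETAQ mice of both. Genotype and sex thus partly coincided in these comparisons and in the interaction. With sex as a covariate 138 genes were called within mice 1 to 6, 161 within mice 7 to 12, and 0 for the interaction.

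Fgf21, a stress-induced hormone gene, had 200 to 261 counts in the ETAQ mice of the first set and 0 to 1 in its WT mice, and 174 to 212 and 0 to 3 in the second set. Chodl, a surface protein gene of fast motor neurons, was lower in ETAQ mice by 2.02 ± 0.09 on the log2 scale in mice 1 to 6 (edgeR adjusted p = 2.41e-08) and by 1.66 ± 0.09 in mice 7 to 12 (adjusted p = 1.98e-07). Its interaction was -0.36 ± 0.13 (adjusted p = 0.992). Gars was at 136 to 149 CPM in ETAQ and 119.7 to 131 in WT mice of the first set, and at 142 to 151 and 127 to 133 in the second. The log2 fold changes were 0.19 ± 0.04 (adjusted p = 0.0501) and 0.18 ± 0.04 (adjusted p = 0.0663).

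Within a set, the levels of the tissue lists were correlated over its 6 mice to see whether they varied together. Of 20 pairs of list sums (red cells, neutrophil granules, fast muscle, bone, and Hox paralogs 12 and 13) 0 passed after adjustment. The smallest raw p on the linear scale was that of fast muscle and bone in mice 1 to 6, with Pearson's r = -0.94 (exact permutation p = 0.0306, adjusted p = 0.611, n = 6) and Spearman's rho = -0.71. Without the 2 mice farthest from the median of fast muscle r was -0.16, so the relation rests on those mice. Across mice 1 to 6 the red cell sum was at 2583 to 4231 CPM and the fast muscle sum at 317 to 1690. A common order of these sums was not detectable with 6 mice. The bone sum spanned 30.6 to 33.2 CPM there, yet mice 7 to 12 already had 23.0 to 31.2, and Ibsp peaked at only 2.585. For fast muscle and red cells, the sums of mice 7 to 12 were 184 to 206 and 824 to 940 CPM. These sums thus include RNA found in both sets, most of all for bone. Their correlations, r = -0.94 among them, cannot show whether bone, muscle and blood themselves varied together.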

How the data were processed

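RNA of whole spinal cord from 12 mice was sequenced after polyA selection, per the labels' protocols, which name a pair of KAPA kits (stranded mRNA and HyperPrep) without saying which library had which. The deposited expected counts and TPM per gene were made by the authors with Bowtie2 2.2.0 and RSEM 1.2.12, per the submitters' processing notes. The sources used here do not give genome build, annotation or strand setting. All mice were separate animals per the titles.

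Expected counts were rounded. Genes were kept by filterByExpr over the 4 combinations of set and genotype, which left 17189 of 38924. Set and genotype were fitted with edgeR 4.0.16 (quasi-likelihood, robust, TMM factors, R 4.3.3), with Benjamini-Hochberg adjusted p under 0.05 as the call. The SE of a log2 fold change was its size over the root of the F statistic. limma 3.58.1 (voom) and DESeq2 1.42.0 were alternatives. Deposited TPM served only to choose genes for the fragment span, the file's gene length minus effective length. Positions are from GENCODE M21 on GRCm38, matched for 16949 tested genes (98.6%).

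Of 649 entries in 51 lists 580 were tested and 6 matched no gene. The members, sets and lists were chosen with earlier results of these data known, and 4 lists (GABA-A receptor subunits, EBF factors, calcineurin subunits, synaptotagmins) after seeing these values. The genes named were 5 markers, the 20 lower and 12 higher autosomal calls with the smallest p, up to 4 called members a list (2 where none was called), and all Hox and clock genes. Others were named after their values were seen.

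On simulated data the set difference recovered 52%, 88%, 94% and 98% of genes changed 1.2, 1.5, 2 and 4-fold (17026 genes, 4.598% false calls), and the interaction 4%, 50%, 70% and 94% (17028 genes, 2.679%). The changed genes, 50 for each fold, were drawn from genes with a mean above 1 CPM, so these rates do not cover genes below that level. Floors cover counting error only, and p-values the spread between these mice. Values of some genes are not reported here.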

Additional observations from a re-analysis of the deposited data

Results flagged for a closer look

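In 39 of 384 groups of 6 values (10.2%) the highest or lowest mouse stood apart from the other 5 by Dixon's criterion. For normally distributed values picked unseen, chance gives about 1 in 20. The 10.2% cannot be set against that rate, because some of the genes were named after their values were seen. The groups also share mice and genes, and no cause was tested.

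Mouse 12 was the highest of mice 7 to 12 in Nr1d2 (177.6 CPM), Per2 (26.93), Tef (230.7), Sgk1 (136.9), Zbtb16 (51.05), Pdk4 (43.62), Cdkn1a (36.49), Klf9 (101.5) and Gjb6 (78.65). The same mouse was highest in the summed levels of clock outputs (609.0 CPM), glucocorticoid targets (982.6) and temperature-responsive genes (4940).

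Mouse 2 was the highest of mice 1 to 6 in Acta1 (130.8 CPM), the fast muscle sum (1690), Pvalb (110.9), the cartilage gene Comp (2.07) and Dcn (60.72). Mouse 3 was highest in Myh2 (15.77), Myl2 (3.267) and the slow muscle sum (34.69), and had the shortest fragment span, 222.0 bases. Mouse 6 was highest in Ibsp (2.585), Acp5 (4.221), the osteoclast sum (34.0) and Pdk4 (35.28).

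Mouse 1, the only female of its set, was highest in Fabp4 (13.26 CPM), Hoxb8 (135.9) and the sum of sex-linked genes (1264). It was lowest in the sum of the list named RNAs without polyA tails (6148). That list holds the mitochondrial ribosomal RNAs mt-Rnr1 and mt-Rnr2, and mouse 1 also had the lowest mitochondrial share of its set (8.50%). Mouse 11, the only male of its set, was lowest in the sum of sex-linked genes (791.6 CPM).

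Mouse 9 was the highest of mice 7 to 12 in Alas2 (4.106 CPM), Kel (0.1293), the red cell sum (939.8) and Baiap3 (105.6), and lowest in the T and NK cell sum (0.8407). Mouse 4 was the lowest of mice 1 to 6 in the T and NK cell sum (0.9246 CPM). Mouse 7 was highest in Hoxd9 (22.1) and Ppp3ca (533.1), and mouse 8 in Vwf (16.07).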

How the results depend on the processing

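Of 3533 genes called for the set difference (1873 higher, 1660 lower), adding sex as a covariate left 1356 calls (848 and 508). The 6 WT mice alone gave 706 (441 and 265), the 6 ETAQ mice alone 1624 (991 and 633), and the 6 ETAQ mice with sex as a covariate, chosen after seeing the data, 1124 (749 and 375). These fits use fewer mice or a covariate close to the set. Leaving out a mouse gave 2783 to 3543 calls, 1503 to 1886 higher and 1280 to 1657 lower. The interaction of set and genotype had 0 calls with edgeR, 8 with DESeq2 and 0 to 2 without a mouse (2 without mouse 4). Genotype within mice 1 to 6 had 184 calls, 306 with DESeq2 and 112 (without mouse 1) to 192 without a mouse. Within mice 7 to 12 genotype had 192 calls, and 123 (without mouse 8) to 197 without a mouse. Sex as a covariate gave 138 and 161 genotype calls in the sets, and 0 interaction calls. The difference of fragment span was -6.69 to -3.24 bases without a mouse, that of genes above 0 329.73 to 502.93 and that of the mitochondrial share 1.13 to 1.65 percentage points. The difference of library totals turned to -267890 without mouse 4 and reached 3303500. The causes were not tested. No paired analysis was possible because the mouse numbers are not shared between the sets.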
